A study of Mus musculus with 7 samples.

Results

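The chromatin regulator families described here are the protein-coding genes of the mouse GENCODE M21 annotation (mm10) whose symbols begin with Kmt, Kdm, Hdac, Arid, Smarc, Setd, Ezh, Asxl, Brd, Tet or Dnmt, or with Chd and a digit, together with Suz12, Eed and Phip. The rule gave 105 genes among 22028 protein-coding genes. Argonaute, the protein that carries microRNAs, was mapped on RNA of CD-1 mouse retinas by PAR-CLIP, in which ultraviolet light links 4-thiouridine in RNA to the protein that touches it. Retinas of postnatal day 0 were cultured for 24 h with 0.1 mM 4-thiouridine and 20% horse serum and irradiated at 365 nm, and 6 retinas were pooled for each library. All libraries shared this treatment: 5 were made with an antibody to Argonaute and 2 with an IgG1 isotype control antibody, and the labels name no allele. The deposited tables pool the 5 Argonaute libraries. Values of single libraries and of the IgG libraries were not analysed here, so the only measure of replication is the number of Argonaute libraries, from 2 to 5, in which a crosslink position was found. Read depth is unknown.

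Chromatin regulators decide which genes a cell can use. Writers such as the Kmt and Setd methyltransferases add marks to histones, erasers such as the Kdm demethylases and Hdac deacetylases remove them, readers such as the Brd proteins bind them, and the Smarc, Arid and Chd proteins belong mostly to complexes that move nucleosomes. Dnmt enzymes methylate DNA and Tet enzymes oxidise that methylation. In the developing nervous system, subunits of the SWI/SNF remodelling complex are exchanged as progenitors become neurons, and microRNAs take part in that exchange. MicroRNAs guide Argonaute by pairing of their seed, bases 2 to 8, often with the 3′ UTR of an mRNA and also with its coding sequence (CDS).

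The positions found in all 5 Argonaute libraries are shown first because they have the highest library count. There were 14 of them in 11 genes. The library count may also depend on RNA level and read depth, which are unknown. Each line gives 30 nt of the spliced transcript (GENCODE M21, mm10) with the crosslinked T as base 11, and capitals mark a 7-base match to the seed of a searched microRNA whose first base lies between 1 nt upstream and 3 nt downstream of the crosslink. Sequences run 5′ to 3′.
Arid2 chr15:96372369, plus strand, CDS: tgaattcagatgtgcctcagcaacgcccaa
Asxl1 chr2:153402054, plus strand, CDS: ctctgtgtattgtgccttgtggtgagataa
Brd1 chr15:88687980, minus strand, 3′ UTR, miR-181: ttaaagactttTGAATGTttaataattttg
Chd1 chr17:15772131, plus strand, 3′ UTR: atcattttattcccaaagaacacttcccat
Chd7 chr4:8867263, plus strand, 3′ UTR, miR-181 and miR-23: caggcagctgtTGAATGTGAagggtccctt
Chd9 chr8:91052389, plus strand, 3′ UTR, miR-181: gggcagctaaTGAATGTcatgaaagctgta
Kdm2a chr19:4317829, minus strand, 3′ UTR, miR-130 and miR-17: gagagctttTTGCACTTTagaaaaaaaaaa
Kdm2a chr19:4318369, minus strand, 3′ UTR: actctgcccctcccccccccccccgaaatg
Kmt2e chr5:23478888, plus strand, CDS: ttctgaaatctgccaaagacttgcctcctg
Kmt2e chr5:23502093, plus strand, CDS: ccccaccccctccccctcctccccctcctt
Phip chr9:82869846, minus strand, 3′ UTR: atttaatgattgtgccttgtattctattat
Phip chr9:82876219, minus strand, CDS, let-7: gtcagaagtatCTACCTCtccattctccat
Setd5 chr6:113128490, plus strand, CDS, miR-9: acagcacctatACCAAAGtaatgagactag
Suz12 chr11:79995752, plus strand, CDS, miR-19: gcaccaatattTTTGCACagaactcttact

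Of these 14 positions, 7 lay in CDS and 7 in 3′ UTRs, and 7 carried a match to a searched seed. Sequence was searched for 38 microRNA families. Matches to miR-124-3p, miR-133a-3p, miR-1a-3p and miR-122-5p were not searched, and shorter forms of the searched seeds were not marked. A line without capitals therefore does not show that no microRNA pairs there. Of the 7 coding positions, 4 had no marked match: both of Kmt2e and those of Arid2 and Asxl1. The windows of Kmt2e at 23502093 and Kdm2a at 4318369 were rich in C, with 23 and 19 C among 30 bases, whereas the other windows of positions in 4 or 5 libraries held 1 to 10.

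Of the 105 genes, 65 had at least 1 crosslink position (61.9%, exact 95% interval 51.9 to 71.2), beside 22.1% of all protein-coding genes. They held 312 of the 14054 positions of the table, or 288 without Phip, which the rule names singly and which held the most. Listing required a crosslink in at least 2 libraries and so depends on the amount of the RNA, which was not analysed here; in whole retinas, fewer cells of a type and less RNA per cell cannot be told apart. The crosslinked members also had long coding sequences, with a median of 3927 nt beside 1683 nt in 4779 of the 4802 other crosslinked genes (the remaining 23 had no transcript of the protein-coding type with a CDS to measure), and the part of RNA level and length in the count was not tested. The median crosslinked member held 3 positions and the 15 with the most held 176 (56.4%), while 13 genes held 1. The plot of positions by gene shows Phip, Kmt2c and Kmt2e at the top, with 24, 17 and 16. The 40 genes with no listed position included Hdac1, Hdac3, Kdm5a, Smarcb1, Ezh1 and Dnmt3b, and their absence does not show absence of binding.

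**Figure D1:**
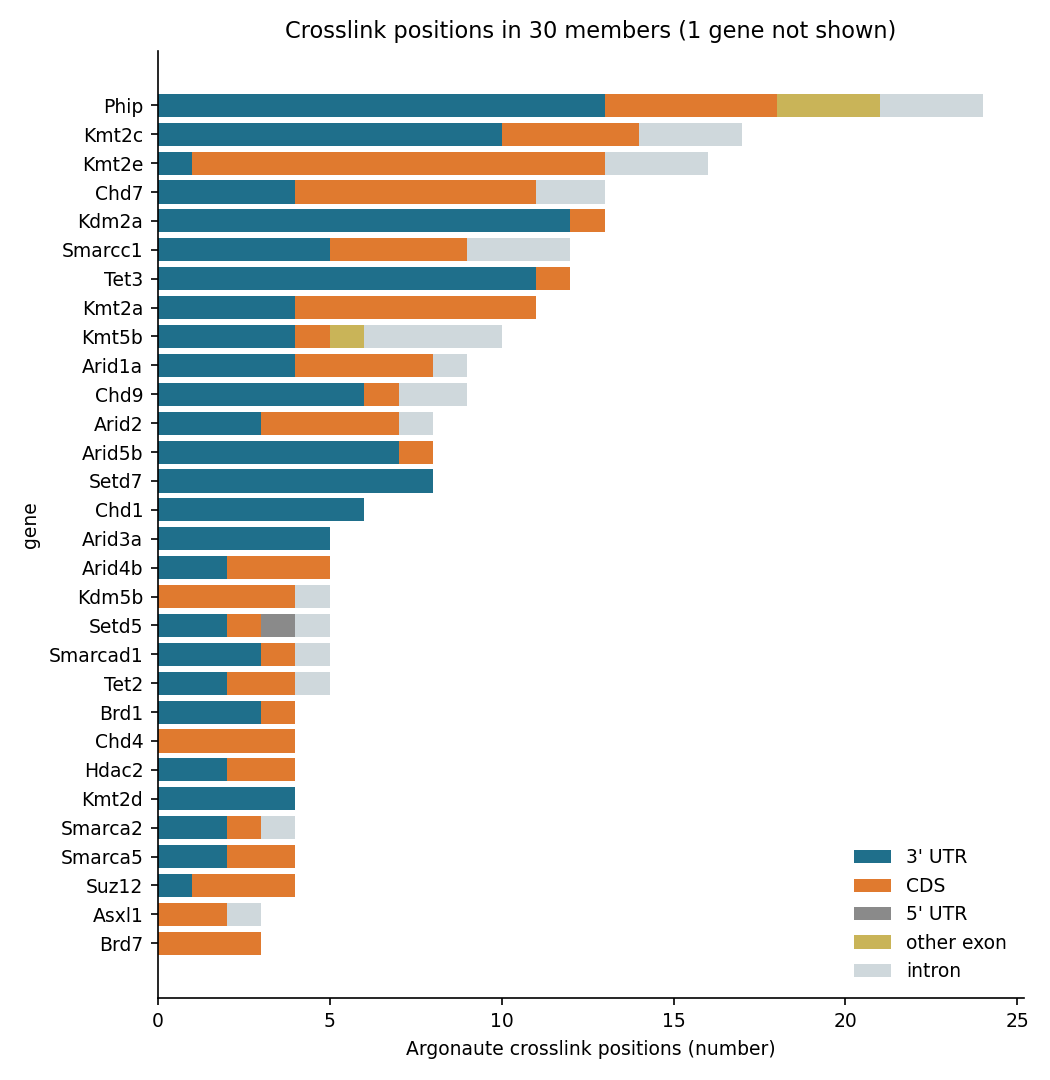
Number of Argonaute crosslink positions (x axis) in 30 of the chromatin regulator genes with the most, with 1 gene not shown (y axis), stacked by part of the gene. Other exon means an exon of a transcript that is not of the protein-coding type. Kdm2a, Tet3 and Setd7 bars are mainly 3′ UTR, and those of Kmt2e, Kmt2a and Chd4 are mainly CDS.

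Among the histone methyltransferases, the Kmt genes held 59 positions in 6 of 8 genes, equally divided between 3′ UTR (24) and CDS (24), with 10 in introns. Kmt2e, a SET-domain protein that binds methylated histones, had 12 of its 16 positions in CDS, 1 in the 3′ UTR and 3 in introns. Its coding positions were spread from base 1035 to base 5265 of 5607, over exons 11 to 27, and 2 of them were found in 5 libraries. This is 2.14 positions per kb of CDS, the highest coding density of the 65 genes. Kmt2a, the founding member of the MLL methyltransferases, had 7 positions in CDS and 4 in the 3′ UTR. Its coding positions all lay between bases 1905 and 4100 of an 11901 nt CDS, 5 of them in exon 3, and none was found in more than 3 libraries. In the 3′ UTR of Kmt2a, a position 3332 nt after the stop codon was found in 4 libraries. Kmt2c, a methyltransferase of enhancers, had 10 of 17 positions in the 3′ UTR, all of them in the longer UTR of 2 shorter transcript models, and none in more than 3 libraries. Its close relative Kmt2d had 4 positions, all in the 3′ UTR. Kmt5b, which methylates histone H4, had 4 of 10 positions in introns, and Kmt5a, which acts on the same histone, had 1, in the 3′ UTR and in 4 libraries.

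The Setd genes had 24 positions in 7 of 10 genes, 14 of them in 3′ UTRs. Setd7, a lysine methyltransferase with a short CDS of 1101 nt and a 3′ UTR of 5988 nt, held 8 positions, all in that UTR. They lay from 45 to 5862 nt after the stop codon, and the most distant was found in 4 libraries while the other 7 were found in 2. Setd5, a chromatin protein linked to intellectual disability, had a coding position in 5 libraries and a 3′ UTR position in 4. Setdb1, which methylates histone H3 in silent chromatin, had 3 positions, each in 2 libraries, with 2 in CDS.

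The core subunits of Polycomb repressive complex 2, which silences developmental genes, held few positions. Suz12 had 4, of which 3 lay close together in CDS, at bases 295, 335 and 359 of 2226, in 2, 5 and 3 libraries. Eed had 1 position in its 3′ UTR in 3 libraries and 1 in a noncoding exon, and the catalytic subunit Ezh2 had 1, in CDS, in 2 libraries. Asxl1, the partner of the histone deubiquitinase Bap1, had 2 coding positions and 1 intronic position. The recurrent coding position of Asxl1 lay at base 4526 of 4545, near the stop codon. Asxl2 and Asxl3 had no listed position.

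Demethylases of the Kdm group held 33 positions in 9 of 18 genes, 16 in 3′ UTRs and 14 in CDS. Kdm2a, which binds unmethylated CpG islands, had 12 of its 13 positions in the 3′ UTR, all between 597 and 1984 nt after the stop codon of a 4681 nt UTR. Of these 12, 2 were found in 5 libraries, 3 in 3 libraries and 7 in 2 libraries. Kdm1a, also known as LSD1, had 2 positions, both coding, in 4 and 3 libraries. Kdm7a had 1 coding position and 1 in the 3′ UTR. Hdac genes had 8 positions in 4 of 11 genes, and 4 of the 8 were in Hdac2, a class I deacetylase, with 2 in CDS and 2 in the 3′ UTR. The CDS positions of Hdac2 were both found in 3 libraries.

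Nucleosome remodelling genes were represented by 38 positions in 7 of 10 Chd genes, 34 in 8 of 13 Smarc genes and 40 in 8 of 10 Arid genes. Chd7, the remodeller mutated in CHARGE syndrome, had 7 coding positions and 4 in the 3′ UTR, and 5 of the 13 were found in 3 or more libraries. The 3′ UTR positions of Chd7 fell in a stretch from 608 to 838 nt after the stop codon and were found in 5, 2, 4 and 4 libraries. Chd9 had 6 of 9 positions in its 3′ UTR, 1 of them in 5 libraries and 1 in 4, and Chd1 had all 6 in its 3′ UTR, in 4, 2, 4, 3, 2 and 5 libraries. Chd4, the ATPase of the NuRD complex, had 4 positions, all coding, with 1 in 4 libraries. Smarcc1, a scaffold of SWI/SNF, had 12 positions, 5 in the 3′ UTR, 4 in CDS and 3 in introns, and none was found in more than 3 libraries. The helicase-like gene Smarcad1 and the ISWI ATPase gene Smarca1 each had 1 position in 4 libraries, in the 3′ UTR. Arid2, a subunit of the PBAF form of SWI/SNF, had 4 coding positions, in 2, 5, 2 and 4 libraries, and 3 in its 3′ UTR, each in 2. Arid1a, of the BAF form, had 4 positions in CDS and 4 in the 3′ UTR. Arid4b, of a deacetylase complex, had 5, of which 1 in CDS and 1 in the 3′ UTR were found in 4 libraries. Arid5b had 7 of 8 positions in its 3′ UTR and none in more than 3 libraries.

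The bromodomain genes other than Phip were coding in the main. The 6 crosslinked Brd genes held 13 positions in CDS, 3 in 3′ UTRs and 2 in introns, and the 3 in 3′ UTRs were all in Brd1, a scaffold of histone acetyltransferases. Phip, a protein with WD40 repeats and bromodomains (ENSMUSG00000032253.13, chr9:82866159-82975516), had 13 of 24 positions in its 3′ UTR, 5 in CDS, 3 in introns and 3 in noncoding exons. In Phip, 2 positions were found in 5 libraries, 1 in 4, 2 in 3 and 19 in 2. A coding position of Phip in 3 libraries, at base 5464 of 5466, was the first base of the stop codon.

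Of the genes of DNA methylation, all 3 Tet genes were crosslinked and held 20 positions, 16 of them in 3′ UTRs. Tet3 had 11 positions in its 3′ UTR of 5669 nt, and 7 of these lay in the last part of it, from 5185 to 5609 nt after the stop codon, 2 of them in 4 libraries. All 3 positions of Tet1 were in its 3′ UTR and in 3 libraries. The maintenance methyltransferase gene Dnmt1 had 1 position and the de novo methyltransferase gene Dnmt3a had 3, each in 2 libraries. The map of positions along the mRNA shows how differently these genes were covered, from Kmt2e, which was mainly coding, to Kdm2a and Tet3, which were mainly 3′ UTR.

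**Figure D2:**
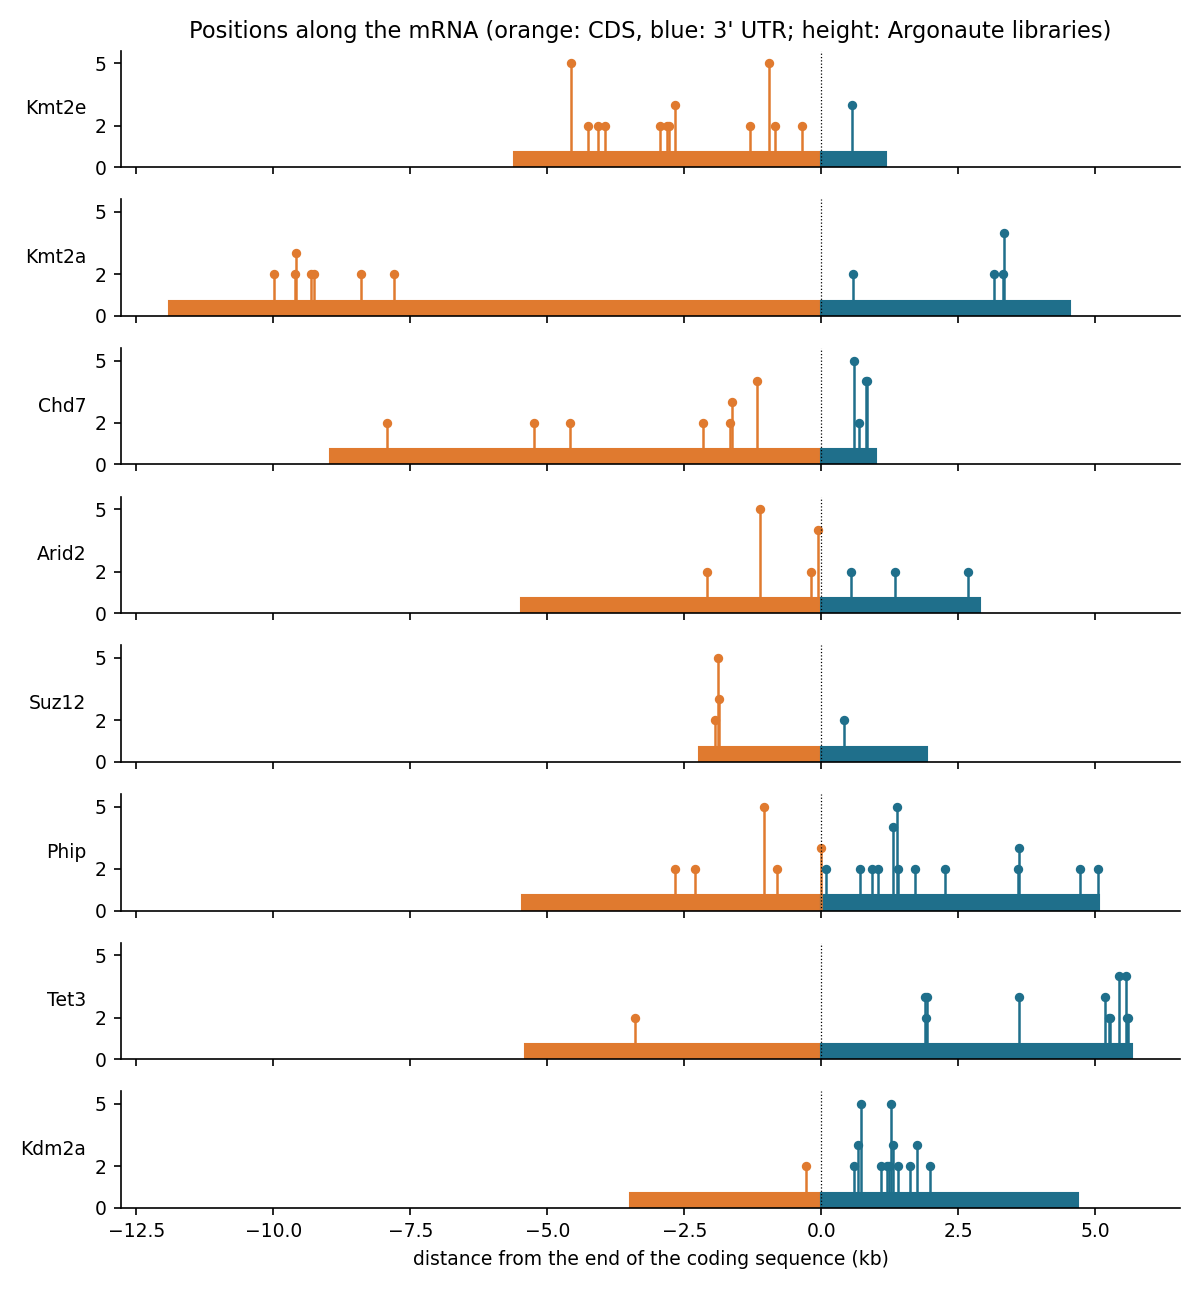
Crosslink positions of 8 genes along the mRNA, with distance from the end of the CDS in kb on the x axis and the number of Argonaute libraries, from 2 to 5, on the y axis; orange boxes and stems are CDS and blue ones 3′ UTR. The 7 coding positions of Kmt2a sit in the first part of its CDS, and 7 of the 11 3′ UTR positions of Tet3 sit near the end of its UTR.

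The rule asked how positions divided between CDS and 3′ UTR. Of the 271 exonic positions of the members, 112 lay in CDS (41.3%, 35.4 to 47.4) and 152 in 3′ UTRs (56.1%, 50.0 to 62.1), beside 26.7% in CDS over all exonic positions of the table. At positions outside the members, CDS held 26.3% (25.5 to 27.2). A CDS position was present in 44 genes (41.9% of 105, beside 8.05% of all protein-coding genes) and a 3′ UTR position in 43, beside 14.9%. Both were present in 27 genes, CDS without 3′ UTR in 17 and 3′ UTR without CDS in 16. This split was not counted over all genes. Among crosslinked genes alone, a CDS position was present in 67.7% of members and in 36.4% of all protein-coding genes. Positions of 1 gene share their RNA and are not independent, so the intervals cover counting error only and no test was made on them.

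Length goes with this division. CDS made up 64.1% of the combined CDS and 3′ UTR length in crosslinked members and 46.1% in other crosslinked genes. Per length, the members had 0.379 positions per kb of CDS and 0.916 per kb of 3′ UTR, a ratio of 2.42 in favour of the 3′ UTR. In the other crosslinked genes the densities were 0.265 and 0.583, a ratio of 2.20. Thus 3′ UTR was the denser part in both sets, although the coding share of exonic positions was larger in the members than elsewhere. Among the 27 members with positions in both parts, the 3′ UTR was denser in 21 and CDS in 6, Kmt2e, Suz12, Hdac2, Arid4b, Dnmt3a and Kdm7a. For Hdac2 and Arid4b the order depends on the transcript used. Their 3′ UTR positions lay in UTRs of 330 and 1629 nt, but the joined lengths over transcripts were 2483 and 3185 nt. Kdm7a had only 1 position in each part, and Dnmt3a had 1 in CDS and 2 in the 3′ UTR. The median 3′ UTR position lay 839 nt after the stop codon in members and 961 nt after it elsewhere.

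**Figure D3:**
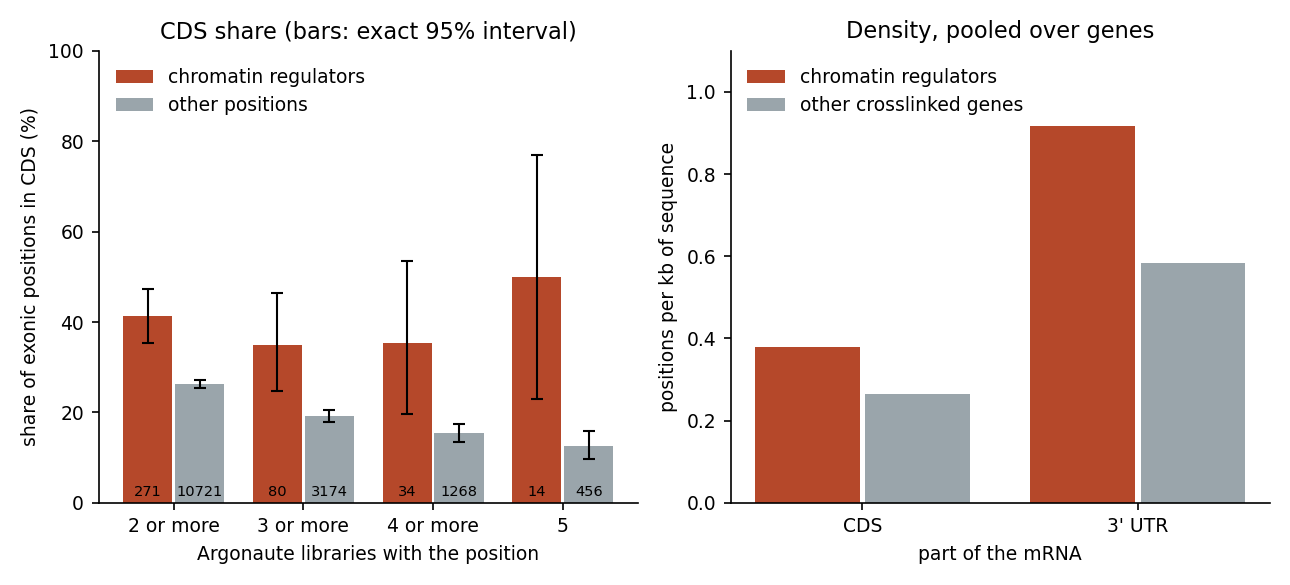
Left, the share of exonic crosslink positions that lay in CDS (y axis, percent) by the number of Argonaute libraries that shared the position (x axis), in members and at other positions, with exact 95% intervals and the number of positions at the foot of each bar. Right, positions per kb of CDS and of 3′ UTR, pooled over crosslinked genes; 3′ UTR is denser in both sets.

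Recurrence across libraries was close to that of the whole table. Of the members' positions, 83 (26.6%, 21.8 to 31.9) were found in 3 or more libraries, beside 25.6% over all positions, and 14 (4.49%, 2.47 to 7.41) in 5, beside 3.47%. By gene, 41 of the 105 had a position in 3 or more libraries, 20 in 4 or 5 and 11 in 5, beside 9.55%, 4.54% and 1.86% of all protein-coding genes. Among crosslinked genes alone, a position in 3 or more libraries was present in 63.1% (50.2 to 74.7) of members and in 43.2% of all protein-coding genes. Positions in 3 or more libraries made up 34.2% (26.7 to 42.3) of the members' 3′ UTR positions, 25% (17.3 to 34.1) of their CDS positions and 7.32% (1.54 to 19.9) of their intronic positions. Outside the members these shares were 32.9%, 21.6% and 9%, each within the members' interval.

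CDS stayed frequent among the members' recurrent positions. It held 28 of 80 exonic positions in 3 or more libraries (35.0%, 24.7 to 46.5), 12 of 34 in 4 or 5 (35.3%, 19.7 to 53.5) and 7 of 14 in 5 (50.0%, 23.0 to 77.0). At other positions the CDS share was 19.2% (17.8 to 20.6), 15.4% (13.4 to 17.5) and 12.5% (9.61 to 15.9) at the same steps. These 7 coding positions in 5 libraries were in Arid2, Asxl1, Kmt2e with 2, Phip, Setd5 and Suz12.

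Runs of positions of 1 gene within 20 nt numbered 17 and held 35 of the 312. How listed positions were chosen among neighbouring crosslinks is not known, and the same count was not made over all positions. The number of runs is therefore not read as a trait of these genes. Windows of 41 nt had a median A and T content of 63.4% in 3′ UTRs and 56.1% in CDS, the same medians as at positions outside the members. In CDS, the crosslinked T was the middle base of its codon in 42.9% (33.5 to 52.6) of the members' positions and in 32.6% (30.8 to 34.3) of the others. Of all T in the coding sequences of these genes, 34.7% and 38.1% were middle bases.

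Matches to the 38 searched seeds were then read at each exonic position with a full window, 270 in the members. A 7-base match in the range of starts given above was present at 60 (22.2%, 17.4 to 27.7), beside 25.9% of all exonic positions. It was present at 23.8% (17.3 to 31.4) of 3′ UTR and 21.4% (14.2 to 30.2) of CDS positions, and these intervals overlap widely. Outside the members the shares were 28.8% in 3′ UTRs and 22.1% in CDS. The share was higher at positions shared by more libraries: 15.3% (10.5 to 21.2) in 2, 32.6% (19.5 to 48.0) in 3 and 47.1% (29.8 to 64.9) in 4 or 5, beside 20.6%, 35.7% and 44.0% at other positions. Of the 101 matches that lay within 20 nt of a member's crosslink, 39 began 1 nt after it (38.6%, 29.1 to 48.8), as did 39.9% of 4901 matches elsewhere, which the plot of match starts shows as a single peak.

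**Figure D4:**
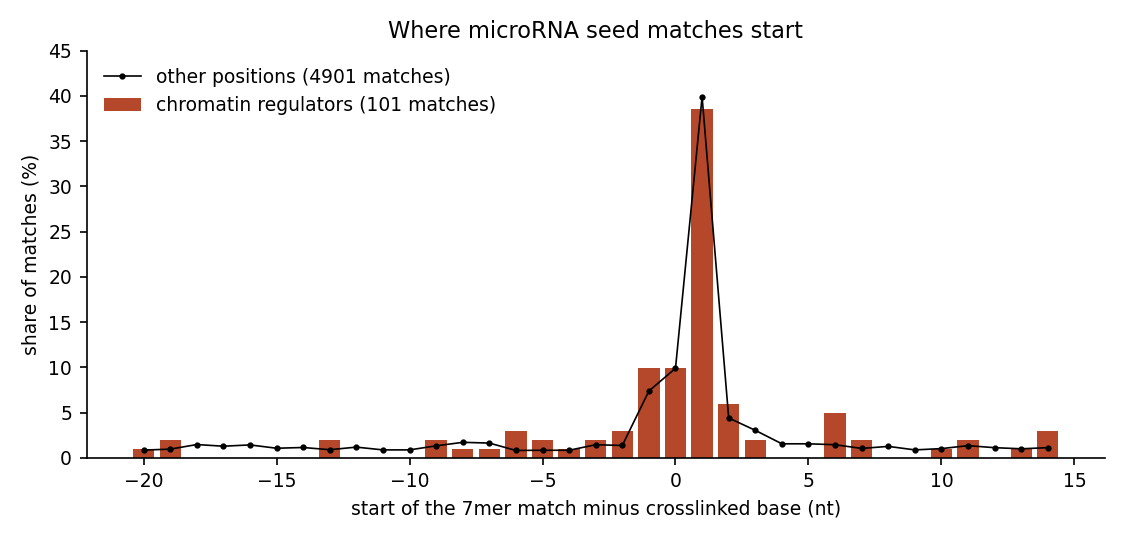
Share of 7-base seed matches (y axis, percent) by the distance of their first base from the crosslinked base (x axis, nt) within 20 nt on either side; bars are chromatin regulators and the black line other positions. Both peak at a start 1 nt after the crosslink, with 38.6% and 39.9% of matches.

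The searched microRNAs with the most matches in these genes, and both miR-216 microRNAs, are shown as mature sequences with the seed in capitals. The sequences came from RefSeq (GRCm38.p6 table). Of 42 families listed for the search, 38 had a sequence there.
miR-30a-5p: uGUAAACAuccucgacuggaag
let-7a-5p: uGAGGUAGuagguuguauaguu
miR-17-5p: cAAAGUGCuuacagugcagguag
miR-130a-3p: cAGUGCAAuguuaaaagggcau
miR-19b-3p: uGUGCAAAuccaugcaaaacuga
miR-15a-5p: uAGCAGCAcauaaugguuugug
miR-181a-5p: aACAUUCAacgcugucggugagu
miR-9-5p: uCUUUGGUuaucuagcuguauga
miR-216a-5p: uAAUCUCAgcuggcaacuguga
miR-216b-5p: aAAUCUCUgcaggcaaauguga

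The seeds of miR-17-5p, miR-130a-3p and miR-19b-3p are complementary to overlapping stretches of 1 target sequence, and those of miR-15a-5p and miR-103-3p likewise, so their counts are not separate. miR-124-3p, miR-133a-3p, miR-1a-3p and miR-122-5p were not searched and have no place in the order that follows. Among the searched families, miR-30 had the most matches, at 9 positions in 9 genes. They lay at 3.33% of 270 positions (1.54 to 6.23), beside 1.73% of other exonic positions. Of these 9, 6 were in 3′ UTRs and 3 in CDS. Those of Chd1 and Setd5, in 3′ UTRs, were at positions in 4 libraries. Those of Brd1, Eed and Kmt2c, in 3′ UTRs, and that of Brd2, in CDS, were at positions in 3. Next after miR-30 came let-7 and miR-17 with 7 each, miR-130 with 6 and miR-15 and miR-19 with 5 each. The interval of each of these shares held the share at other positions. All 4 matches to miR-181 were in 3′ UTRs, in Brd1, Chd7 and Chd9 at positions in 5 libraries and in Kmt2a at a position in 4. All 4 matches to the full seed of miR-9, a microRNA of neural progenitors, were in CDS, in Arid4b, Chd7, Kmt5b and Setd5. Other match forms were not counted by family, and the unmarked 3′ UTR window of Chd1 in 5 libraries holds a shorter miR-9 match. The let-7 matches, which pair with a microRNA that marks maturing cells, were in CDS of Phip, Chd7, Smarcc1 and Smarcd1 and in 3′ UTRs of Arid3a and Smarcad1, where Arid3a had 2 neighbouring positions at the same match.

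**Figure D5:**
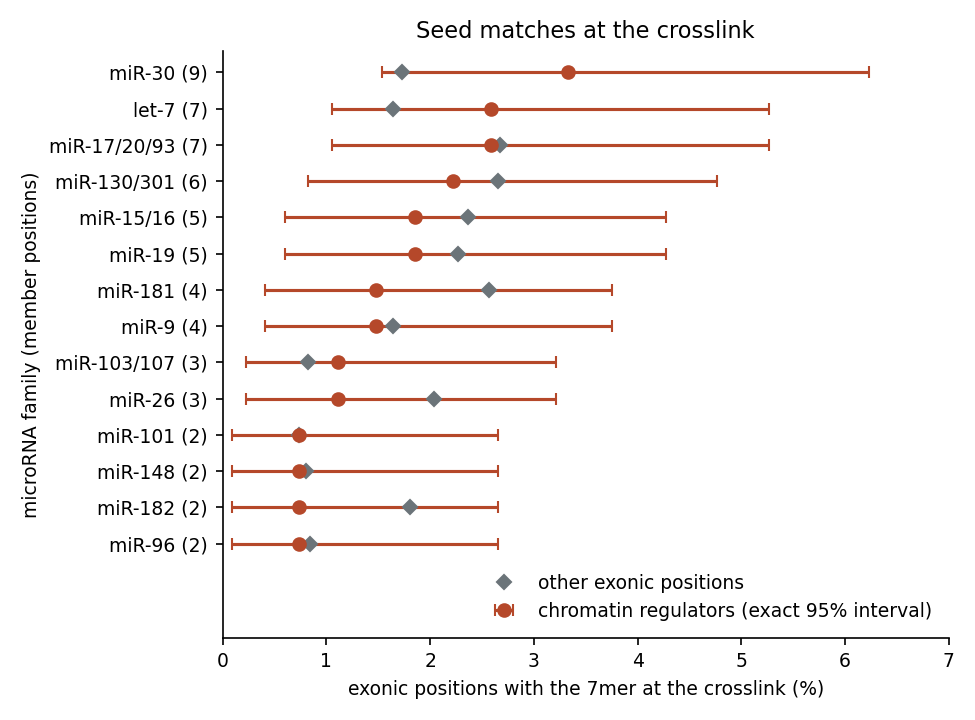
Percent of exonic positions with a seed match at the crosslink (x axis). The y axis gives the 14 searched microRNA families with the most matches in chromatin regulators, with the number of positions. Red circles are members with exact 95% intervals and grey diamonds other positions. The diamonds lie inside the red intervals for all 14 families.

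Matches at the members' positions in 4 libraries are given next, to show where the recurrent seed pairing lay beyond the positions in 5 libraries. The crosslinked T is base 11 and capitals mark the matches.
Arid4b chr13:14197885, plus strand, 3′ UTR, miR-17: ggcacttaagtGCACTTTttttatgaagaa
Chd1 chr17:15770784, plus strand, 3′ UTR, miR-30: ccaaagctactTGTTTACattgtacactgc
Chd4 chr6:125101461, plus strand, CDS, miR-15: agacccctgatTGCTGCTaaaaaccccaag
Chd7 chr4:8862707, plus strand, CDS, miR-9: ccgagttatgtACCAAAGaacacagacgtg
Chd9 chr8:91053746, plus strand, 3′ UTR, miR-130 and miR-17: tttgcagtaTTGCACTTTtgtttaactaga
Kmt2a chr9:44804570, minus strand, 3′ UTR, miR-181: aatcttttaaTGAATGTatctttctaaagg
Phip chr9:82869919, minus strand, 3′ UTR, miR-17: gtgttttttctGCACTTTttacggtatcct
Setd5 chr6:113152661, plus strand, 3′ UTR, miR-30: tttctttcactTGTTTACtgtaatacctgg
Smarca1 chrX:47810380, minus strand, 3′ UTR, miR-135: agtacatttatAAGCCATgtgtaagtagat

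In 7 of these 9 windows, and in 4 of the 7 matched windows of positions in 5 libraries, the position was in a 3′ UTR. Where miR-17 matched in this Chd9 window, and likewise in Kdm2a, the same bases also held the overlapping miR-130 match. Another miR-17 match in the 3′ UTR of Chd9, at a position in 3 libraries, had no miR-130 match. In Chd7, at 8867263, the miR-181 match ran into a match to miR-23.

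The study was concerned with miR-216a and miR-216b, and its table of their matches was read for the same genes. It listed 12 distinct sites in 10 of the 105 genes, beside 1.51% of all protein-coding genes; among crosslinked genes the share was 15.4% (7.63 to 26.5) in members, beside 6.84% of all. Members had a median of 3 positions per crosslinked gene and other genes a median of 2. Per position, the members had 3.85 sites in 100 (2.00 to 6.62) and the full set of positions had 2.80, which lies within that interval. The 11 sites with spliced sequence follow, with the bases that match miR-216a or miR-216b in capitals and the match type after the class. A 7mer-m8 match pairs with bases 2 to 8 of the microRNA, and an offset 6mer pairs with bases 3 to 8.
Suz12 chr11:80032594-80032599, plus strand, 3′ UTR, offset 6mer: ttatgctgtcttAGAGATggagaatttttg
Brd1 chr15:88713998-88714003, minus strand, CDS, offset 6mer: agaaaatgatgaAGAGATgaaagctgccaa
Kmt2d chr15:98832672-98832677, minus strand, 3′ UTR, offset 6mer: tatctggattgtAGAGATgggctggatggt
Asxl1 chr2:153401043-153401050, plus strand, CDS, no listed form: ctgcaatgtcccagaagattgcgaagatgg
Asxl1 chr2:153402066-153402071, plus strand, CDS, offset 6mer: tgtgccttgtggTGAGATaataaattatgg
Setd7 chr3:51520965-51520970, minus strand, 3′ UTR, offset 6mer: tggaccgtgttcAGAGATaccaaatgatga
Setdb1 chr3:95338055-95338060, minus strand, noncoding exon, offset 6mer: ctagctacgcagTGAGATcttattgaaaga
Kmt2c chr5:25273166-25273171, minus strand, 3′ UTR, offset 6mer: caaggaatgtacTGAGATgacttccttagg
Kdm7a chr6:39152876-39152881, minus strand, CDS, 7mer-m8: gaacatgccttTGAGATTccagacaatgtt
Phip chr9:82903728-82903733, minus strand, noncoding exon, offset 6mer: taaaataaggctAGAGATggaatatcctga
Smarcc1 chr9:110239499-110239504, plus strand, 3′ UTR, 7mer-m8: aaacctacagtTGAGATTtgcctttaagac

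Of the 12 sites, 5 lay in 3′ UTRs, 4 in CDS, 2 in noncoding exons and 1, in Phip, in an intron. Kdm7a and Smarcc1 had full 7mer-m8 matches to miR-216a, 8 sites were offset 6mers, and the first Asxl1 site held none of the listed forms. The linked crosslink was found in 5 libraries for the second Asxl1 site, in 3 for Smarcc1 and in 2 for the other 10. That site of Asxl1 covered coding bases 4538 to 4543 of 4545, so that its last base was the first base of the stop codon, and it began 12 nt after the crosslink. In Kdm7a the 7mer began at the crosslinked T, and in Smarcc1 and Setd7 the crosslink lay inside the deposited interval. The sites of Suz12, Brd1, Setdb1 and Phip ended 5 to 10 nt before their crosslinks and that of Kmt2d began 13 nt after it. Among the linked crosslinks with sequence, that of Kdm7a alone had a searched seed match in the range of starts given above. Matches to miR-124-3p, miR-133a-3p, miR-1a-3p and miR-122-5p were not searched. The other linked crosslinks, that of Asxl1 in 5 libraries among them, may therefore hold a match to another microRNA.

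Chromatin genes outside the rule, such as the other Polycomb, acetyltransferase, NuRD and heterochromatin genes, were listed for comparison. Of 114 such genes, 68 were crosslinked (59.6%, beside 22.1% of all protein-coding genes), with 127 positions in 3′ UTRs, 55 in CDS and 24 in introns. In this list 15 of the 114 genes had a position in 4 or 5 libraries, beside 4.54% of all protein-coding genes. A miR-216 site was listed in 5 of the 68 crosslinked genes, beside 6.84% of all crosslinked protein-coding genes. Cbx5, a heterochromatin protein, had the most, with 13 positions, all in the 3′ UTR. Gatad2b, of the NuRD complex, and Mtf2, an accessory subunit of Polycomb repressive complex 2, had 10 each, and both had a position in 5 libraries. Of 12 retinal marker genes, 11 were crosslinked, among them Rorb and Neurod1, beside 22.1% of all protein-coding genes. A position was listed in 0 of 4 pigment epithelium, 0 of 3 microglia and 0 of 2 lens markers. Among vessel markers 1 of 3, Kdr, had a position. The marker lists are short and were chosen with earlier results of these data known, so they do not test the purity of the tissue. These counts say which RNAs had a listed position, not how many cells of each type were present.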

How the data were processed

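The deposited tables were made from PAR-CLIP reads of the Argonaute libraries. Per the file headers, the deposited score counts the samples in which a crosslink was found (2 to 5). The miR-216 table has no header; its 404 entries (394 distinct sites) were tied to crosslinks by equal score and a distance of at most 20 nt, which linked all of them. Per the submitters' processing notes, the build was mm10 and the tools included STAR, bedtools and CASAVA 1.8.2; how crosslinks were called is not given in the sources used here.

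Each position took its class from same-strand GENCODE M21 features, in the order 3′ UTR and CDS of protein-coding transcripts, 5′ UTR, other exons and introns. Other exons, also called noncoding exons here, are those of transcripts not of the protein-coding type. Lengths are unions over coding transcripts. Sequence came from spliced transcripts, so introns had none; all 10989 exonic positions with a base fell on T. Of 271 exonic member positions 270 had a full 41 nt window. Matches to 38 seeds were searched on the transcript strand. Shares have exact Clopper-Pearson intervals (95%; Python 3.11.15, scipy 1.17.1). No test between groups was made. Class assignment and seed search were tested on simulated data.

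Members, gene lists and families were chosen with earlier results of these data known. Named are genes with a miR-216 site, with a position in 4 or 5 libraries, the 15 with the most positions, and the top gene of each symbol family. Tet1, Dnmt1, Smarcd1, Arid3a, Brd2 and the members without a position were named after values were seen. A gene that this rule names is counted in the totals but not reported here.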

Additional observations from a re-analysis of the deposited data

How the results depend on the processing

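Read depth, RNA level and values per library are unknown, so absence of a position is no evidence of absence of binding, and intervals cover counting error only. No paired analysis was possible because single libraries have no values in these pooled files, which also prevented leaving out each library. Leaving out Phip (the member with the most positions), leaving out the Arid3, Arid4 and Arid5 genes with Setd3, and merging positions within 20 nt kept all 5 main values within their error or within 1.5 times. The CDS share was also within its interval with CDS ranked before 3′ UTR and with the longest-CDS transcript alone. With positions in 3 or more libraries only, 41 members were crosslinked, the CDS share of exonic positions was 35%, 2 miR-216 sites were left and 38.8% of exonic positions had a seed match; fewer positions enter by construction. The share in 4 or more libraries was 10.9%. Only 2 sites overlapped the crosslinked base. With 8mers the seed share was 11.1%, and with 7mer-m8 or 7mer-A1 matches 28.1%, as these forms are stricter and looser by construction.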
